A study of Homo sapiens with 6 samples.

Results

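Kinesins are motor proteins that use ATP to move along microtubules or to take their ends apart. The genes described here are the protein-coding genes whose symbol has the form KIF followed by a number and, where present, a letter, as in KIF11 or KIF3A. The pattern found 39 genes among the 61541 gene rows of the table, and all 39 are annotated as protein-coding. Symbol and gene type alone decided membership. The family and its division by role were nevertheless chosen by the fold changes and calls of this same comparison, known from earlier results, so the counts and medians below describe these genes and no test of the family, or of one role against another, is given.

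RNA sequencing measured gene counts in 6 libraries from A498, a human cell line labelled as renal clear cell carcinoma, kept in RPMI-1640 with fetal bovine serum. The 3 shRNF26 libraries carried a short hairpin RNA (shRNA) against RNF26, a ubiquitin ligase of the endoplasmic reticulum membrane, and the 3 shcontrol libraries carried a control shRNA. All 6 share the treatment label that names transfection and infection, and the labels name neither the number of hairpins nor separate cultures. The p-values therefore measure the spread between these libraries, which may be technical.

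RNF26 had 68.4, 69.2 and 68.3 CPM in the shRNF26 libraries and 2030, 1942 and 1945 CPM in the shcontrol libraries (log2 fold change -4.84, SE 0.040, adjusted p = 4.27e-24 by edgeR). CPM is the count per 1000000 counts of the library, here scaled by the trimmed mean of M values (TMM), and the p-values come from the edgeR quasi-likelihood test with Benjamini-Hochberg (BH) adjustment over all tested genes. The libraries held 16682871 to 18021718 counts. Of 13 renal and clear cell carcinoma markers, 7 were below 1 CPM, CA9 and PAX2 among them. Of 7 squamous markers 0 were below 1 CPM, and their summed level was 1070 to 1130 CPM in shRNF26 and 1197 to 1271 CPM in shcontrol libraries. KRT5 and KRT6A made up most of that sum. KRT5 had means of 623 CPM in shRNF26 and 583 CPM in shcontrol libraries, and KRT6A of 261 and 433 CPM. The squamous markers differed in direction. With an adjusted p under 0.05 by edgeR, TP63 and SERPINB3 were higher, and KRT6A, DSG3 and SPRR1B were lower. KRT5 and KRT14 did not pass. All 3 leukocyte markers were below 1 CPM, with sums of 0 to 0.163 CPM in shRNF26 and 0.0574 to 0.122 CPM in shcontrol libraries. The renal markers summed to 179 to 192 CPM in shRNF26 and 238 to 259 CPM in shcontrol libraries. Most of that sum was EPCAM, with means of 155 CPM in shRNF26 and 190 CPM in shcontrol libraries. VIM had means of 19.3 CPM in shRNF26 and 49.9 CPM in shcontrol libraries. Each other marker of that list had group means of 3.27 CPM or less, and their directions differed. The fibroblast markers summed to 81.9 to 88.2 CPM in shRNF26 and 55.2 to 66.2 CPM in shcontrol libraries, with COL1A2 and PDGFRB below 1 CPM. The endothelial markers summed to 4.62 to 6.46 CPM in shRNF26 and 4.75 to 5.17 CPM in shcontrol libraries. The part of these cell identities in the kinesin results was not tested.

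In a dividing cell a set of mitotic kinesins builds the spindle, moves chromosomes to its middle and organises the midzone where the cell is later cut apart. Their transcripts are made mainly late in the cell cycle. Transport kinesins carry vesicles, organelles and RNA along microtubules at all times, often through light chains and adaptors that hold the cargo. By textbook role, 13 members were placed with the mitotic kinesins, 13 with the transport kinesins and 13 with neither.

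Mitotic kinesin transcripts were higher in the shRNF26 libraries, while transport kinesin transcripts were near the shcontrol level. Of the 13 mitotic kinesins, 11 passed the filter on low counts (a mean of at least 1 CPM over all libraries), and 11 of these rose and 0 fell, with an adjusted p under 0.05 in the fit across 14766 genes. Of all tested genes 18.9% rose and 22.6% fell, 41.4% in both directions together. Of the 13 transport kinesins 10 were tested, and 0 rose, 3 fell and 7 did not pass. The median log2 fold change was 0.30 for the mitotic and -0.03 for the transport kinesins, beside 0.01 over all tested genes. The individual mitotic values ran from 0.18 to 0.73 and the transport values from -0.24 to 0.12, so the ranges of the 2 roles did not overlap. That separation depends on the placement of members. KIF2A (0.06, not called), placed in neither role, would make the ranges overlap if counted as mitotic. KIF21A (0.29, called higher), also in neither role, would do so if counted as transport. Scaling by total counts moved both medians up, to 0.39 and 0.06. That scaling called 30.1% of all genes higher and 15.4% lower.

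Summed over their 13 genes, mitotic kinesins made up 1092 ± 30.6 CPM in shRNF26 and 875 ± 10.2 CPM in shcontrol libraries (mean ± SD, n = 3 each). Transport kinesins summed to 1087 ± 8.08 CPM in shRNF26 and 1129 ± 17.9 CPM in shcontrol libraries. The ratio of mitotic to transport counts within a library needs no scaling between libraries. It was 0.999, 0.981 and 1.03 in the shRNF26 libraries and 0.772, 0.767 and 0.785 in the shcontrol libraries, and the groups did not overlap. In bulk RNA, more cells in mitosis and more kinesin RNA per cell cannot be told apart.

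The kinesins that work at the spindle midzone and in cytokinesis included both the largest and some of the smallest rises. KIF20A, which brings the chromosomal passenger complex to the midzone, had 87.9, 85.1 and 96.4 CPM in shRNF26 and 52.8, 54.6 and 55.2 CPM in shcontrol libraries. Every shRNF26 library was far above every shcontrol library, and the log2 fold change of 0.73 (SE 0.057, adjusted p = 4.91e-09 by edgeR) was the highest of the 28 tested kinesins. KIF20A shares 3.34% of its exon bases with BRD8 on the opposite strand, a gene that rose less (log2 fold change 0.24, adjusted p = 0.00306 by edgeR), and 1.72% with CDC23, which did not pass. KIF20B, a relative of KIF20A needed late in cytokinesis, had 68.7, 63.0 and 67.5 CPM in shRNF26 and 46.0, 42.3 and 47.6 CPM in shcontrol libraries. It rose by 0.55 on the log2 scale (SE 0.060, adjusted p = 5.67e-07 by edgeR), again without overlap.

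KIF23, the motor of the centralspindlin complex, had 134, 135 and 142 CPM in shRNF26 and 113, 118 and 114 CPM in shcontrol libraries. The groups were separate, but the rise was small (log2 fold change 0.25, SE 0.045, adjusted p = 0.000194 by edgeR). KIF14, which works with citron kinase in cytokinesis, had 72.3, 73.9 and 74.5 CPM in shRNF26 and 60.5, 64.2 and 67.5 CPM in shcontrol libraries. Its shcontrol values were spread more widely than its shRNF26 values, and it rose by 0.20 on the log2 scale (SE 0.054, adjusted p = 0.00584 by edgeR). KIF4A, a chromokinesin that also limits midzone length, had 113, 110 and 114 CPM in shRNF26 and 97.1, 99.2 and 94.4 CPM in shcontrol libraries, a log2 fold change of 0.21 (SE 0.045, adjusted p = 0.00106 by edgeR). KIF4A shares 13.4% of its transcript windows of 50 bases with its intronless relative KIF4B, which had only 8, 8 and 6 counts in shRNF26 and 9, 7 and 6 counts in shcontrol libraries. How the counting divided such reads was not stated.

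The motors that separate the spindle poles also rose. KIF15, which can hold poles apart when KIF11 is blocked, had 44.9, 42.8 and 43.3 CPM in shRNF26 and 28.4, 32.5 and 31.6 CPM in shcontrol libraries. This was the third largest rise (log2 fold change 0.50, SE 0.067, adjusted p = 7.21e-06 by edgeR). KIF11, the tetrameric motor that slides antiparallel microtubules and is the target of antimitotic drugs, had 133, 123 and 146 CPM in shRNF26 and 104, 110 and 112 CPM in shcontrol libraries. Its shRNF26 libraries varied the most of the 11, with a coefficient of variation of 8.69%, and shRNF26 replicate 3 was the highest. The log2 fold change was 0.30 (SE 0.056, adjusted p = 0.000317 by edgeR).

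Among the motors that act on chromosome arms and microtubule ends, KIF22 moved most. KIF22, a chromokinesin that pushes chromosome arms away from the poles, had 122, 118 and 121 CPM in shRNF26 and 88.8, 91.2 and 93.4 CPM in shcontrol libraries (log2 fold change 0.40, SE 0.045, adjusted p = 8.84e-07 by edgeR). An unnamed antisense gene covers 13.01% of its exon bases and had 0 counts in all 6 libraries. KIF2C, a depolymerase that corrects wrong attachments at centromeres, had 95.7, 95.8 and 97.2 CPM in shRNF26 and 76.7, 79.3 and 75.0 CPM in shcontrol libraries. The groups were tight and separate, with a log2 fold change of 0.32 (SE 0.048, adjusted p = 2.22e-05 by edgeR). KIF18A, which damps chromosome movements at the metaphase plate, had 33.5, 32.8 and 34.3 CPM in shRNF26 and 25.8, 28.3 and 28.6 CPM in shcontrol libraries, a rise of 0.28 on the log2 scale (SE 0.070, adjusted p = 0.0035 by edgeR). KIF18B, which shortens astral microtubules, had 189, 181 and 184 CPM in shRNF26 and 170, 161 and 158 CPM in shcontrol libraries. It had the highest level per kilobase of the mitotic kinesins in both groups and the smallest rise of the 11 (log2 fold change 0.18, SE 0.043, adjusted p = 0.0025 by edgeR). Non-overlapping groups of 3 were found for all 11 tested mitotic kinesins, against 50.1% of all tested genes. KIF2B, a depolymerase related to KIF2C, had 0 counts in all libraries.

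**Figure D1:**
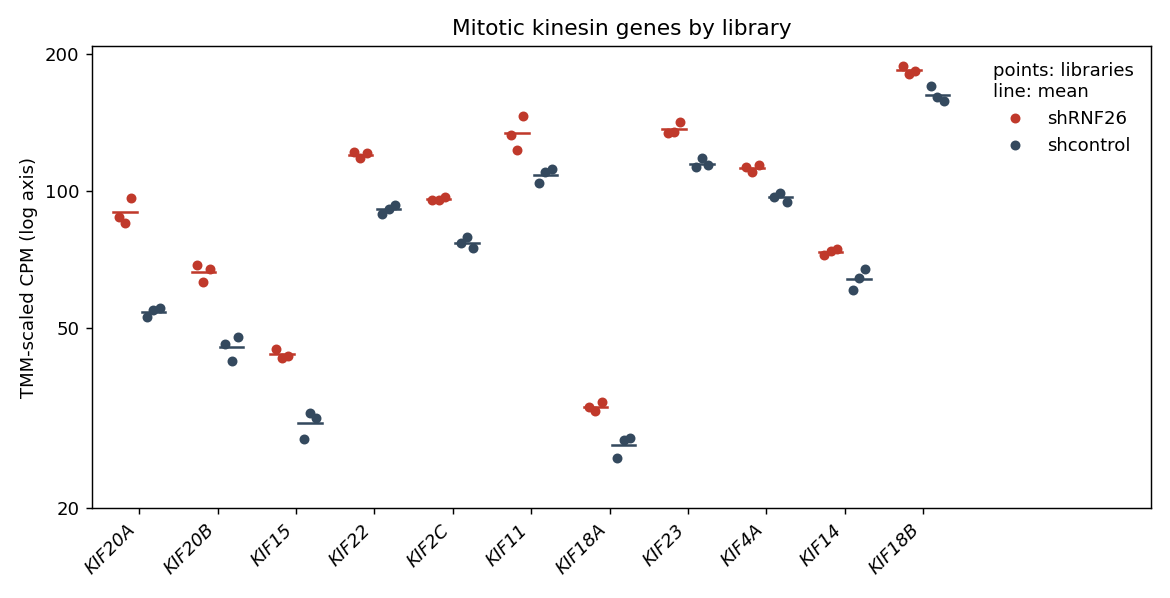
TMM-scaled CPM on a log axis for the 11 tested mitotic kinesin genes, ordered by fold change, with 1 point per library and a line at the mean of 3 libraries (shRNF26 left, shcontrol right of each pair). For every gene the 3 shRNF26 points lie above the 3 shcontrol points, with the widest gap for KIF20A (means of 89.8 and 54.2 CPM).

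The promoters of the kinesin genes were read for 3 short motifs, because genes expressed late in the cell cycle often carry CCAAT boxes, bound by the factor NF-Y, and cell cycle homology regions of the form TTTGAA or TTTAAA. RefSeq sequences (GRCh38.p14) covering 250 bases before to 50 after the start were matched by symbol for 33 of the 39 members. KIF5A, KIF13B, KIF19, KIF21B, KIF26B and KIF27 were not matched. Both strands were searched, TTTAAA reads the same on both, and 0 matches of different motifs overlapped in these promoters. TTTGAA or TTTAAA was present in 10 of the 11 tested mitotic kinesins (90.9%), in 2 of 9 tested transport kinesins (22.2%), in 0 of 5 tested other kinesins and in 19.5% of 15843 protein-coding promoters of the same length. CCAAT was present in 9 of 11 (81.8%), 3 of 9 (33.3%), 1 of 5 (20%) and 36.4% of them. The 2 kinds of motif stood together in 8 of the 11 mitotic promoters (72.7%), in 1 of 9 transport promoters (11.1%) and in 7.95% of all. A match is a description of letters in this window and does not show binding.

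The windows below hold the TTTGAA or TTTAAA nearest the start in each of the 10 mitotic promoters, ordered by fold change, and are shown because they are what these promoters share. Each has 30 bases on the strand of the gene, 5′ to 3′, and capitals mark that 1 match (TTCAAA is TTTGAA on the other strand).
KIF20A (chr5:138179056-138179085, + strand): gaacgcagcgcgtaaTTTAAAatattgtat
KIF20B (chr10:89701599-89701628, + strand): ccctggccgccattgTTTGAAtttgaaaac
KIF15 (chr3:44761744-44761773, + strand): gatccaagcgccaaaTTCAAAtttgcggcc
KIF2C (chr1:44739819-44739848, + strand): cgcttgcgcgcgggaTTTAAActgcggcgg
KIF11 (chr10:92593087-92593116, + strand): ctactctgtctctttTTCAAAttgaggcgc
KIF18A (chr11:28108152-28108181, - strand): ggaaagtggcttgggTTTGAAtattgtggt
KIF23 (chr15:69414279-69414308, + strand): gcgctgattggcccgTTTGAAatgcgccag
KIF4A (chrX:70290055-70290084, + strand): cgtctccgggacggaTTTGAAacttggcgg
KIF14 (chr1:200620736-200620765, - strand): aaggcggggcgcccaTTCAAAttgcggcct
KIF18B (chr17:44947757-44947786, - strand): ggcccgcccggctaaTTTGAAcgcaaggcg
The first base of the match lay between position -55 (KIF23) and position 25 (KIF20B), counted from the start as position 1. In the 2 transport promoters with such a match it lay farther upstream, at -140 in KIF5B and -241 in KIF16B. KIF22 had a CCAAT box at -66 and neither of the other motifs. KIF2C and KIF15 had no CCAAT.

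Longer stretches, from 150 bases before to 30 after the start, are shown for the 3 kinesins that rose most and for KIF5B, the 1 transport kinesin with both kinds of motif. Capitals mark every complete match. The CCAAT boxes here read ATTGG because they lie on the other strand.
KIF20A (chr5:138178962-138179141, + strand): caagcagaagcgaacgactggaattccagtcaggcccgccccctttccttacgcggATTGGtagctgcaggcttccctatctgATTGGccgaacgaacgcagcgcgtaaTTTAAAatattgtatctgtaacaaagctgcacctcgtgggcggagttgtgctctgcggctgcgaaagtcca
KIF20B (chr10:89701440-89701619, + strand): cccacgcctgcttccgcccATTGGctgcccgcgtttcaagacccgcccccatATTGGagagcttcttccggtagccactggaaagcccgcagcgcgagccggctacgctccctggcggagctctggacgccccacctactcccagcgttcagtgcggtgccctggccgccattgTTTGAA
KIF15 (chr3:44761644-44761823, + strand): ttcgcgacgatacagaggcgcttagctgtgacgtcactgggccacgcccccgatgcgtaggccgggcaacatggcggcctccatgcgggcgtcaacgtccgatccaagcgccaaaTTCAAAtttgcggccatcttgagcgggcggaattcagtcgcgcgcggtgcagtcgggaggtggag
KIF5B (chr10:32056396-32056575, - strand): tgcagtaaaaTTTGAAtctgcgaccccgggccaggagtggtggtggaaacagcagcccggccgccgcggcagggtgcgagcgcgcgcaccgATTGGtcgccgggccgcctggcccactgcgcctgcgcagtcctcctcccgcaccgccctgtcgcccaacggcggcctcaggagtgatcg
In KIF20A, 2 inverted CCAAT boxes at -94 and -67 stand upstream of TTTAAA at -41. In KIF20B the inverted boxes are at -131 and -98 and a pair of TTTGAA at 25 and 31, of which the first is within the stretch. KIF5B has its CCAAT box at -59, nearer the start than its TTTGAA, the reverse of the order in KIF20A and KIF20B.

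Transport kinesins were mostly close to the shcontrol level. KIF5B, the ubiquitous heavy chain of kinesin-1, had 238, 228 and 256 CPM in shRNF26 and 256, 275 and 273 CPM in shcontrol libraries. The groups nearly touched and the fall was small (log2 fold change -0.15, SE 0.046, adjusted p = 0.0115 by edgeR). KIF5C, a kinesin-1 heavy chain best known from neurons, had 19.4, 19.8 and 21.5 CPM in shRNF26 and 22.4, 23.9 and 25.2 CPM in shcontrol libraries (log2 fold change -0.23, SE 0.082, adjusted p = 0.0282 by edgeR). KIF16B, which moves early endosomes, had 30.9, 32.8 and 33.4 CPM in shRNF26 and 38.3, 35.8 and 41.0 CPM in shcontrol libraries (log2 fold change -0.24, SE 0.069, adjusted p = 0.00843 by edgeR). These are the 3 transport kinesins that fell, beside 22.6% of all genes, and total-count scaling ended each call (log2 fold changes of -0.06, -0.14 and -0.15 for KIF5B, KIF5C and KIF16B). Without shRNF26 replicate 1 each call was also lost (-0.14, -0.20 and -0.21). The call of KIF5B was lost without shcontrol replicate 2 (-0.14) or shRNF26 replicate 2 (-0.12), and that of KIF5C without shcontrol replicate 2 (-0.23), shcontrol replicate 3 (-0.20) or shRNF26 replicate 2 (-0.22). KIF5C was not called by DESeq2 either (adjusted p = 0.062), nor KIF5B under quantile normalization (-0.06).

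The other 7 tested transport kinesins did not pass. KIF1C, which carries vesicles in many cell types, had 265, 262 and 238 CPM in shRNF26 and 263, 266 and 251 CPM in shcontrol libraries, and the groups overlapped (log2 fold change -0.03, SE 0.045). KIF1B, a carrier of mitochondria and synaptic vesicle precursors, had 138, 137 and 138 CPM in shRNF26 and 140, 140 and 144 CPM in shcontrol libraries, with a log2 change of -0.03 (SE 0.042). The kinesin-2 subunits, which drive transport into cilia, were KIF3A (-0.18, SE 0.076, adjusted p = 0.0692 by edgeR), KIF3B (-0.02, SE 0.044) and KIF3C (0.04, SE 0.045), on the log2 scale. KIF3A had 31.7, 29.5 and 34.3 CPM in shRNF26 and 33.0, 36.7 and 38.5 CPM in shcontrol libraries, which overlap. It became lower with an adjusted p below 0.05 without shcontrol replicate 1 (-0.24) or shRNF26 replicate 3 (-0.23). KIF13A and KIF13B, kinesin-3 motors of endosomes and membrane proteins, had log2 fold changes of 0.12 (SE 0.060) and 0.06 (SE 0.057). KIF13A had 54.8, 55.4 and 51.6 CPM in shRNF26 and 51.2, 51.4 and 46.6 CPM in shcontrol libraries. The groups of 3 were separate in 6 of the 10 tested transport kinesins, higher in KIF13A and KIF13B and lower in KIF1B, KIF5B, KIF5C and KIF16B, against 50.1% of all tested genes. Under total-count scaling KIF3C (0.13), KIF13A (0.21) and KIF13B (0.15) were called higher instead, and under quantile normalization KIF13A was (0.16), so the direction of the transport kinesins depended on the scaling.

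**Figure D2:**
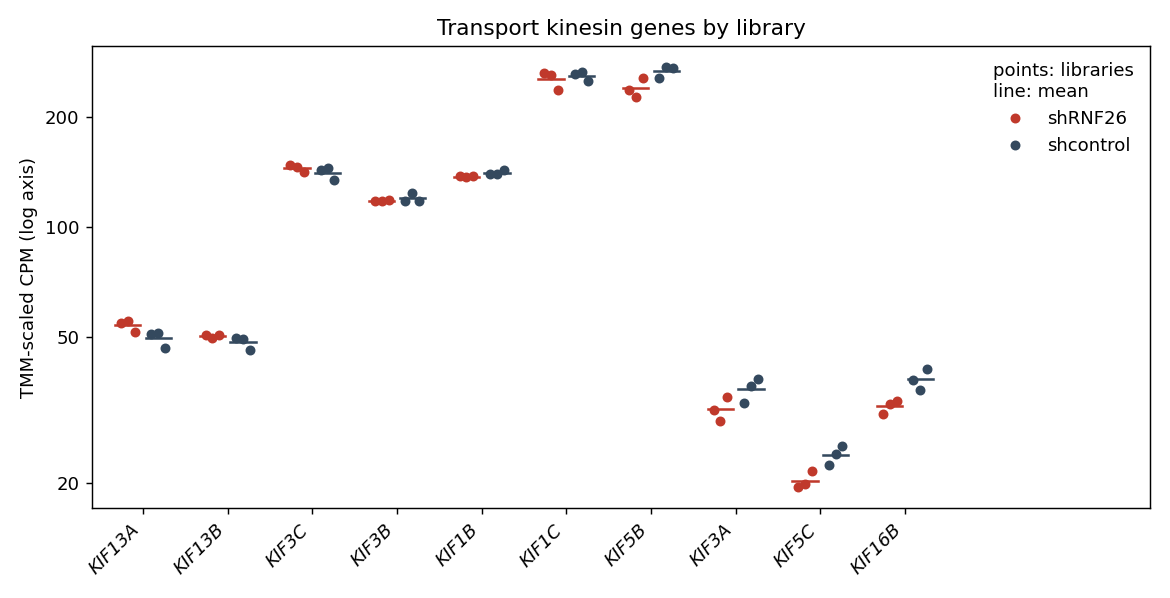
TMM-scaled CPM on a log axis for the 10 tested transport kinesin genes, ordered by fold change, with 1 point per library and a line at the mean of 3 libraries (shRNF26 left, shcontrol right of each pair). The points of both groups lie close together, and the clearest gaps are those of KIF5C and KIF16B, whose shRNF26 points are all below the shcontrol points.

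Of the 3 transport members under the filter, 1 fell when no filter was applied. KIF17, a kinesin-2 motor of dendrites and cilia, had 6, 7 and 7 counts in shRNF26 and 29, 22 and 16 counts in shcontrol libraries, too few to enter the main test. In the edgeR fit without a filter its log2 fold change was -1.81 (SE 0.41, adjusted p = 0.00016), in a fit that called 9.81% of 34822 genes lower. KIF5A had 10, 12 and 14 counts in shRNF26 and 14, 17 and 12 counts in shcontrol libraries, and KIF1A had 2, 0 and 0 counts in shRNF26 and 3, 3 and 2 counts in shcontrol libraries. Both encode motors best known from neurons, and neither passed in the fit without a filter.

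Of the 7 tested members outside both roles, 2 were higher, 1 was lower and 4 did not pass, which is near the 18.9% higher and 22.6% lower of all tested genes. KIF21A, which restrains microtubule growth, had 32.3, 31.1 and 32.8 CPM in shRNF26 and 24.5, 27.6 and 26.3 CPM in shcontrol libraries (log2 fold change 0.29, SE 0.073, adjusted p = 0.00303 by edgeR). Its close relative KIF21B went the other way, with 81.2, 84.9 and 82.9 CPM in shRNF26 and 91.4, 96.7 and 90.3 CPM in shcontrol libraries (log2 fold change -0.16, SE 0.049, adjusted p = 0.0127 by edgeR). The call of KIF21B was lost under total-count scaling (-0.07), under quantile normalization (-0.11), without shcontrol replicate 2 (-0.13) and without shRNF26 replicate 1 (-0.14). KIF27 had 16.2, 14.0 and 15.6 CPM in shRNF26 and 11.4, 13.6 and 12.3 CPM in shcontrol libraries, a log2 fold change of 0.29 (SE 0.10, adjusted p = 0.0289 by edgeR). That call was lost with DESeq2 (adjusted p = 0.059) and without shcontrol replicate 1 (0.23), shcontrol replicate 3 (0.28), shRNF26 replicate 1 (0.25) or shRNF26 replicate 3 (0.28). KIF27 also shares 31.7% of its 50-base windows with other genes.

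KIF2A, a depolymerase that acts at spindle poles and in neurons, was placed in neither role and had 68.9, 66.2 and 64.0 CPM in shRNF26 and 59.6, 65.3 and 66.7 CPM in shcontrol libraries. The groups overlapped (log2 fold change 0.06, SE 0.057). KIF24, a centriolar depolymerase that restrains cilium formation, had 31.7, 28.4 and 33.4 CPM in shRNF26 and 25.0, 29.9 and 28.2 CPM in shcontrol libraries (log2 fold change 0.17, SE 0.082, adjusted p = 0.106 by edgeR). It was called higher without shRNF26 replicate 2 (0.23) and under total-count scaling (0.26). KIF7, which works at the tip of the primary cilium in Hedgehog signalling, had a log2 fold change of 0.07 (SE 0.066). It overlaps TICRR on the opposite strand over 11.78% of its exon bases, and TICRR rose (0.43, adjusted p = 1.05e-06 by edgeR). KIF2A and KIF7 were called higher under total-count scaling as well (0.15 and 0.16). KIF9 had the lowest level per kilobase of the tested members (log2 fold change -0.18, SE 0.21), with 3.82 ± 0.844 CPM in shRNF26 and 4.34 ± 0.974 CPM in shcontrol libraries (SD, n = 3 each).

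**Figure D3:**
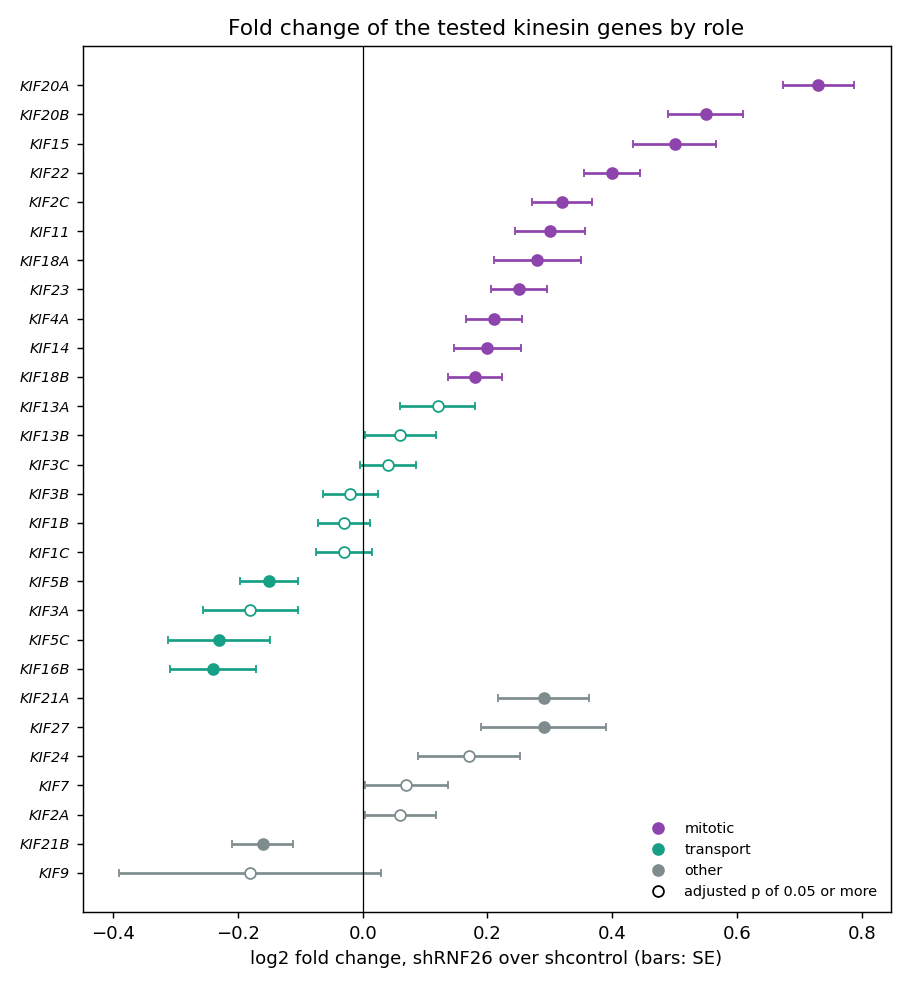
Log2 fold change of shRNF26 over shcontrol for the 28 tested kinesin genes, by role and in falling order within each role. Bars are standard errors, and open points have an adjusted p of 0.05 or more. The 11 mitotic kinesins run from 0.18 to 0.73, all to the right of the 10 transport kinesins, which run from -0.24 to 0.12.

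In all, 28 of 39 kinesins were tested. Of these, 13 were called higher, 4 lower and 11 neither, beside 18.9% higher and 22.6% lower of all genes. Of the 11 under the filter, 2 were mitotic, 3 transport and 6 of neither role. KIF2B, KIF19 and KIF26A had 0 counts in all libraries, which allows up to 3 counts per library, or 0.166 to 0.180 CPM of total counts, for counting error only. KIF12 had 5, 10 and 4 counts in shRNF26 and 12, 9 and 9 counts in shcontrol libraries. KIF25 had 3, 3 and 2 counts in shRNF26 and 1, 1 and 0 counts in shcontrol libraries. KIF26B had 1, 3 and 2 counts in shRNF26 and 0, 0 and 3 counts in shcontrol libraries, and KIF6 had 2, 1 and 0 in shRNF26 and 0, 0 and 2 in shcontrol libraries. These genes were barely detected, and none of them passed in the fit without a filter.

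Levels of different kinesins were compared per kilobase of merged exons (GENCODE 29, whose build is not that of the table, so lengths are approximate). KIF5B was highest, at 41.0 ± 2.39 CPM per kb in shRNF26 and 45.6 ± 1.72 in shcontrol libraries. KIF18B was next, at 39.7 ± 0.945 CPM per kb in shRNF26 and 35.0 ± 1.29 in shcontrol libraries, and in shRNF26 libraries these 2 neighbours lay within their spread. KIF1C followed with 29.7 ± 1.74 in shRNF26 and 30.3 ± 0.915 CPM per kb in shcontrol libraries. Below it in shRNF26 libraries came KIF22, KIF11, KIF2C and KIF4A, at 27.9 to 24.7 CPM per kb. KIF20A (22.7 ± 1.49 CPM per kb) tied with KIF3C (22.7 ± 0.475) at rank 8 of 28 in shRNF26 libraries. In shcontrol libraries KIF20A took rank 11, at 13.7 ± 0.312 CPM per kb. KIF15 took rank 16 in shRNF26 and rank 19 in shcontrol libraries. KIF20B, KIF15 and KIF18A were the mitotic kinesins below 10 CPM per kb in shRNF26 libraries, and KIF14 joined them in shcontrol libraries. Among the transport kinesins KIF5C was lowest, at 2.20 ± 0.123 CPM per kb in shRNF26 and 2.58 ± 0.149 in shcontrol libraries.

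**Figure D4:**
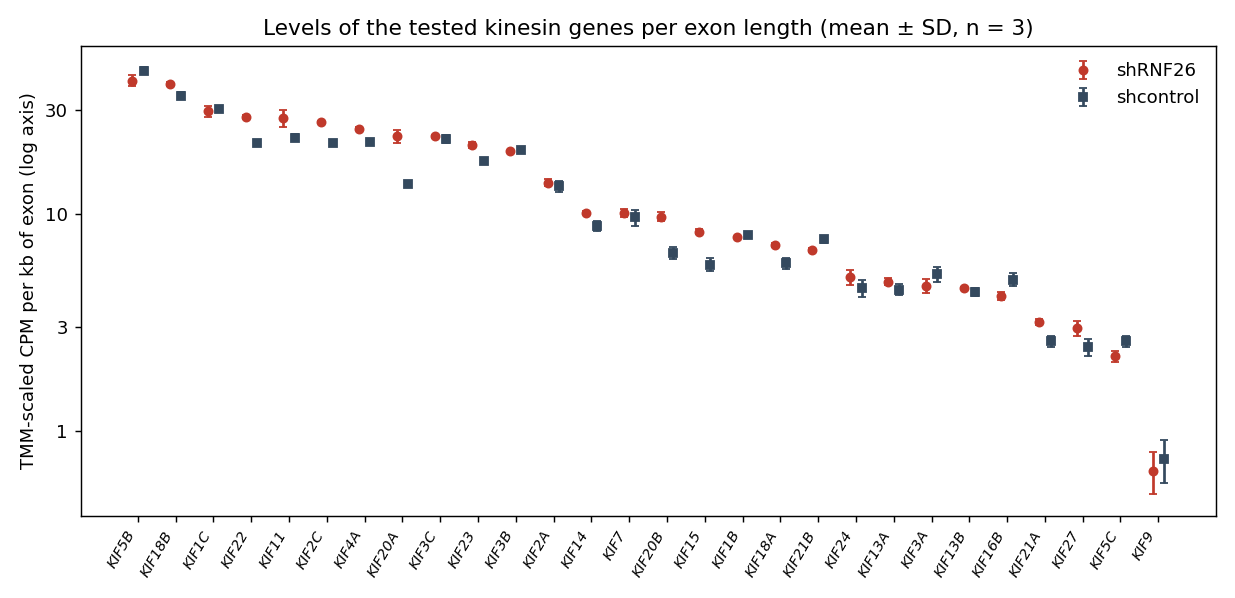
TMM-scaled CPM per kilobase of merged exon (log axis, mean ± SD, n = 3) for the 28 tested kinesin genes in falling order of the shRNF26 level, with shRNF26 as circles and shcontrol as squares. KIF5B and KIF18B stand highest in both groups, and the squares of KIF20A, KIF20B and KIF15 lie well below their circles.

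Kinesins with other symbols did not move as 1 set. CENPE, the kinetochore motor that brings chromosomes to the spindle equator, had 93.7, 92.0 and 104 CPM in shRNF26 and 68.0, 72.1 and 80.9 CPM in shcontrol libraries (log2 fold change 0.39, SE 0.063, adjusted p = 6.37e-05 by edgeR). KIFC3, a minus-end motor of cell junctions and the Golgi, had 86.3, 93.6 and 88.3 CPM in shRNF26 and 146, 135 and 132 CPM in shcontrol libraries (-0.62, SE 0.051, adjusted p = 9.39e-09 by edgeR). KIFC3 thus fell by more than any tested member of the KIF pattern. KIFC2 had a log2 fold change of 0.22 (adjusted p = 0.0416 by edgeR), a call lost with DESeq2 and without shcontrol replicate 2 (0.17), shcontrol replicate 3 (0.16), shRNF26 replicate 1 (0.17) or shRNF26 replicate 2 (0.20). STARD9 did not pass (0.06). KIFC1, the main minus-end kinesin of the mitotic spindle, was below the filter and was not tested. It had only 17, 12 and 15 counts in shRNF26 and 7, 20 and 12 counts in shcontrol libraries. Whether the way reads were counted lowered these values was not examined.

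The spindle and midzone partners of the mitotic kinesins were higher as well. Among 16 tested, 12 rose, 0 fell and 4 did not pass, with a median log2 fold change of 0.27, beside 18.9% of all genes higher. HMMR, a spindle assembly factor, had 57.1, 57.8 and 59.3 CPM in shRNF26 and 33.7, 39.1 and 37.3 CPM in shcontrol libraries (0.66, SE 0.063, adjusted p = 9.12e-08 by edgeR). CDK1, the mitotic kinase, rose by 0.53 on the log2 scale, ASPM, a spindle pole protein, by 0.46 and PLK1, a mitotic kinase, by 0.45. The partners of single kinesins did not all follow. CIT, which encodes the citron kinase that binds KIF14, rose by 0.39, and TPX2, a partner of KIF11, by 0.16. RACGAP1, which forms centralspindlin with KIF23, had 0.07 and did not pass (SE 0.048). PRC1, which recruits KIF4A, had only 3.02 ± 0.709 CPM in shRNF26 and 3.17 ± 0.159 CPM in shcontrol libraries (log2 fold change -0.07, SE 0.21). With that SE, a rise as small as that of KIF4A (0.21) cannot be told from no change. Whether the way reads were counted lowered the level of PRC1 was not tested.

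Among 12 tested proliferation markers, 6 rose, 4 fell and 2 did not pass, with a median of 0.13, beside 18.9% higher and 22.6% lower of all tested genes. TOP2A, the topoisomerase that untangles mitotic chromosomes, rose by 0.52 on the log2 scale, CCNB2, a mitotic cyclin, by 0.40, the checkpoint kinase BUB1 by 0.32 and MKI67, a coat protein of mitotic chromosomes, by 0.30. The 4 that fell were E2F1 (-0.26) and MYBL2 (-0.13), transcription factors of the cycle, and PCNA (-0.14) and RRM2 (-0.11), which act in DNA synthesis. These values stand beside the mitotic kinesin result, and their part in it was not tested.

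Genes that serve the transport kinesins fell or did not pass. Among 18 tested light chains, adaptors and cargo links, 0 were called higher, 7 lower and 11 neither, with a median of -0.14, beside 22.6% of all genes lower. KLC3, a kinesin-1 light chain, fell by 0.50 on the log2 scale (log2 fold change -0.50), MAPK8IP2, a kinesin-1 adaptor, had -0.38 and SPAG9, another such adaptor, -0.37. KLC2, another kinesin-1 light chain, also fell (-0.34). Dynein and dynactin, which move cargo toward the minus end, had 5 of 22 tested genes higher, 6 lower and a median of -0.05, and these shares were near the 18.9% and 22.6% of all tested genes. Among them NDEL1 (-0.51), a dynein regulator, BICD2 (-0.44), a cargo adaptor, and DYNLT3 (-0.42), a light chain, fell and the dynactin subunit DCTN2 rose (0.20). The call of DCTN2 was lost without shcontrol replicate 1 (0.14) or shRNF26 replicate 3 (0.16). Of 10 tested tubulins, the subunits of the track itself, 3 rose, 2 fell and the median was 0.09, beside the same 18.9% and 22.6% of all tested genes. TUBB2A (-0.64) and TUBB6 (-0.50) fell, and TUBA1A (0.15) and TUBA1C (0.14) rose. The call of TUBA1A was lost without shcontrol replicate 3 (0.13) or shRNF26 replicate 2 (0.13). Tubulin genes have near-identical copies, so single values are uncertain. The median of dynein and dynactin changed sign under total-count scaling (0.05).

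**Figure D5:**
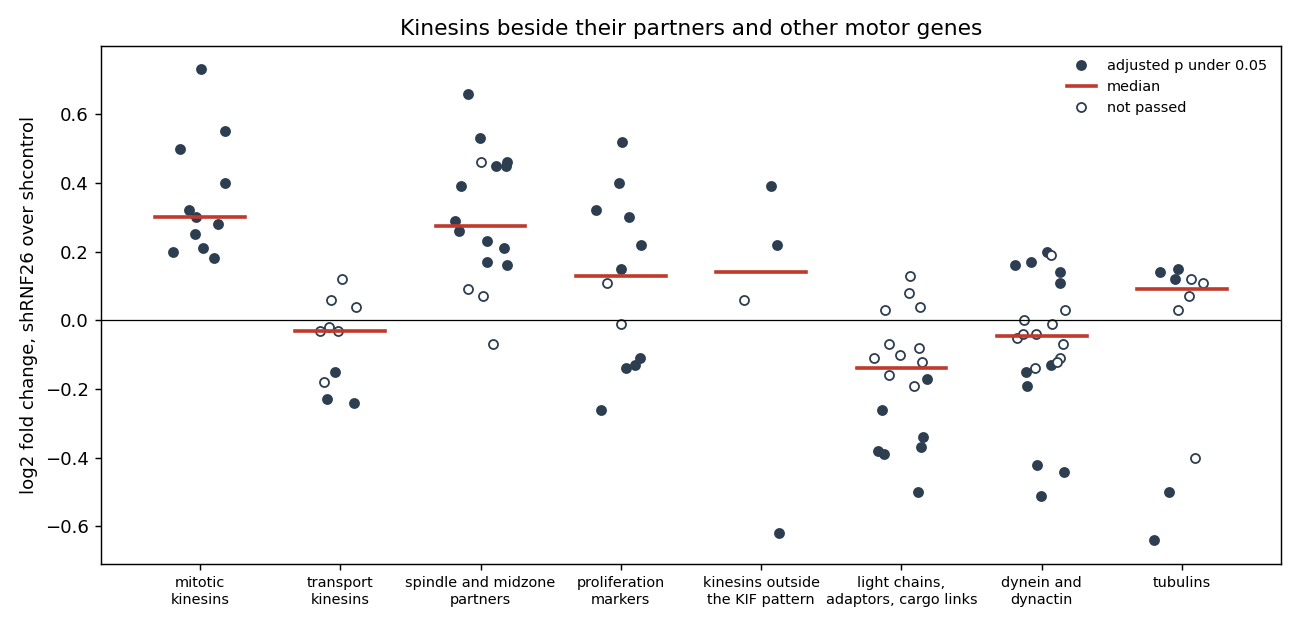
Log2 fold change of shRNF26 over shcontrol for each tested gene of 8 sets, with filled points for an adjusted p below 0.05, open points for the rest and a red line at the median. The medians of the mitotic kinesins (0.30) and their spindle partners (0.27) lie above 0. Those of the transport kinesins (-0.03) and their adaptors (-0.14) lie below it. Single genes lie on both sides of 0 in each of these sets except the mitotic kinesins.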

How the data were processed

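The authors deposited 1 table of raw gene counts for the series, with 61541 Ensembl genes. A further 2 rows without an ID (0% of counts) were omitted. Although named for FPKM, its values are whole numbers with differing totals, so they were treated as counts. Build hg19 comes from the submitters' processing notes. Libraries were made with a directional kit, per the labels' protocols, but aligner, counter, annotation and strand setting of the counting were not stated, and reads of overlapping or near-identical genes may be shared. The gene names table gave 61369 symbols and GENCODE 29 another 159.

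Groups and replicate numbers came from the sample titles. The test was the edgeR 4.0.16 quasi-likelihood test (R 4.3.3), two-sided, with TMM scaling (factors 0.966 to 1.033), a minimum mean of 1 CPM (14766 genes, 99.67% of counts) and Benjamini-Hochberg adjustment over all tested genes, threshold 0.05. The SE is the size of the log2 fold change divided by the root of F. Variation between replicates beyond counting noise was 0.0507 as a coefficient (root of the common dispersion by edgeR). The labels do not tell whether it is biological or technical. One count is worth 0.0555 to 0.0599 CPM. Replicates differed by more than sampling noise (chi-square per degree of freedom 2.241 to 4.687), so each library counted as 1 sample. The test was also run on simulated counts. The outcome is not reported here, and nothing about calls of the size seen in the kinesins is drawn from it.

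Members, roles, gene lists, motifs and alternatives were chosen with earlier results of these data known. Every member is named. RNF26 is always named, and each list gives up to 4 called genes with the largest change, except items that are not reported here. KLC2, CIT, TPX2, RACGAP1, PRC1, the proliferation markers that fell, BRD8, CDC23, TICRR, STARD9 and KIFC1 were added for their link to a member or after their values were seen. Exon overlaps were computed from the exon coordinates of GENCODE 29 (GRCh38), and the 50-base windows shared between genes from its transcript sequences. Of the adaptor list, TBK1BP1 was not analysed here, and JAKMIP1 had 0 counts. Alternatives were RLE and total-count scaling, DESeq2 1.42.0, limma 3.58.1 on log2(CPM + 1), a robust fit, other filters, the replicate number as a block and leaving out each library. Quantile normalization was added after the data were seen.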

Additional observations from a re-analysis of the deposited data

How the results depend on the processing

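All 11 tested mitotic kinesins kept their rise under all 15 other settings, and 12 of the 17 called kinesins did so, KIF21A being the twelfth. The share of all called genes that kept their call is not given, so these counts have no background beside them. RNF26 stayed between -4.86 and -4.68. With total-count scaling 4449 genes were higher and 2269 lower, against 2785 and 3332 with TMM. Kinesins called lower numbered 4, but 0 after total-count scaling, 2 after quantile normalization and 0 to 5 when 1 library was left out. Transport kinesins called higher numbered 0, but 3 after total-count scaling and 1 after quantile normalization. Transport kinesins called lower numbered 3, but 0 with total-count scaling, and 0 to 4 when 1 library was left out. Among all tested genes, 2791 to 3232 were called lower when 1 library was left out, against 3332 with all libraries. Over the 15 other settings 2184 to 4449 genes were called higher and 2269 to 3479 lower. Quantile normalization lay within both ranges. The cause of these differences between settings was not tested.

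The mitotic median was 0.39 with total-count scaling, 0.35 with quantile normalization and 0.26 to 0.33 without 1 library. The transport median was 0.06 and 0.04 under those 2 scalings and -0.15 without a filter on low counts, which adds 3 members of few counts. KIF2A among the mitotic kinesins and KIF21A and KIF21B among the transport kinesins moved neither median beyond the spread between replicates. Either placement would make the ranges of the mitotic and transport kinesins overlap. Under total-count scaling the list medians were 0.23 (other kinesins by symbol), -0.05 (adaptors), 0.36 (spindle partners), 0.05 (dynein), 0.18 (tubulins) and 0.22 (proliferation). Under quantile normalization they were 0.32 for spindle partners, 0.17 for tubulins and 0.20 for proliferation. Kinesins with other symbols had 0.08 without a filter and 0.10 to 0.20 without 1 library. Total-count scaling moved all genes by a median of 0.09.

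Replicate numbers did not pair the libraries: same-numbered libraries deviated together with correlations of 0.011, -0.027 and 0.093 for replicates 1, 2 and 3, and not every library correlated best with its own number. With the replicate block 6414 genes were called instead of 6117, of which 3479 instead of 3332 were lower. Of the kinesins, 13 were called higher and 5 lower, and KIF3A was called (-0.18). A pseudocount for FPKM was not run because the table holds counts. Kinesins with few counts, such as KIF17 and KIF1A, are limited by depth.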
